A study of Homo sapiens with 10 samples.

Results

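The ends of a hepatic differentiation course were compared gene by gene: hepatocyte-like cells at day 21 against the undifferentiated human embryonic stem cells (hESCs) at day 0. Genes were included if the larger of the day 0 and day 21 values was 50 or more, and 9698 of the 12125 genes of the table met this. Differences are of log2(value + 1), day 21 minus day 0. A gene was called gained if it was at least 4-fold higher at day 21, lost if it was at least 4-fold lower, and kept if the ends differed by less than 2-fold. By this rule 1156 genes were gained (11.9% of those included), 1120 were lost (11.5%) and 4812 were kept (49.6%), with 2610 genes in between.

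RNA of H1, an established hESC line, was sequenced in bulk on 10 days of the course, with 1 library per day. The day 0 cells were untreated and grew on Matrigel in mTeSR1 medium. The day 21 cells had received Activin A (100 ng/ml) for 3 days, BMP2 (20 ng/ml) with FGF4 (30 ng/ml) for 4 days, HGF and KGF (20 ng/ml each) for 6 days and Oncostatin M (20 ng/ml) for 8 days, the last step in a hepatocyte culture medium. The labels also give Oncostatin M as the treatment of the day 13 library, whereas the protocol has HGF and KGF up to that day. Both groups are the same line without a genetic change, the labels call the day 21 cells only presumed hepatocyte-like, and no sorting is described. Cell state, medium and time in culture therefore cannot be told apart, and a bulk value cannot separate fewer cells of a type from less RNA per cell.

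With 1 library on each side there is no replicate check, no test is possible and no p-value is given. The deposited values are scores rather than read counts, so the depth behind a value is unknown. They summed to 2337450 at day 0 and 2330948 at day 21, and the median value was 82 and 81. Ranked values are nearly the same in all libraries, so similar sums and medians follow from the scale. Values of 2164 or more lie on 10 levels shared by the libraries, up to a maximum of 18734. A fold change that ends on such a level is a difference between levels and not a measured ratio. Of the gained genes 61 stood on such a level at day 21, and of the lost genes 48 did at day 0. The number of these top levels was a setting. Lower values recur across libraries as well, such as 1886 for APOA2 at day 7 and for AGT at day 21. Folds between values below 2164 are therefore differences of scores too. The middle gene differed by -0.11, with 4494 genes higher and 5152 lower at day 21, so that all differences are relative to the rest of the transcriptome. The libraries of days 11 and 9, which share a medium, give a low measure of how far a pair of libraries differs: 0.118% of genes were 4-fold higher and 0.107% 4-fold lower at day 11, and the standard deviation of the log2 differences was 0.36. At the edge of the inclusion rule, CHST4 went from 50 to a listed 0 and was included, and EPHB1 went from 49 to a listed 0 and was not. At the edge of the call, BACH1 (67 and 271, a difference of 2.00) counted as gained, and PTGES3 (1157 and 289) was just short of lost.

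**Figure D1:**
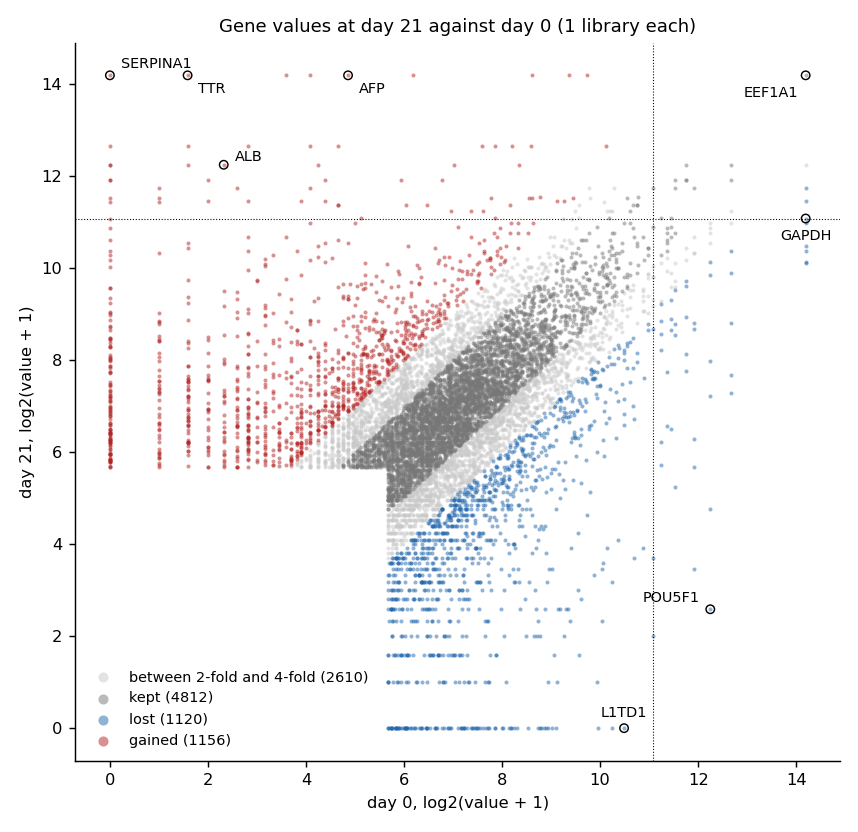
Each point is 1 of the 9698 genes, with log2(value + 1) at day 0 on the x axis and at day 21 on the y axis, 1 library each, coloured by call. Dotted lines mark 2164, the lowest of the shared top levels. SERPINA1 and TTR sit at the top left, POU5F1 and L1TD1 at the lower right, and EEF1A1 is on the highest level at both ends.

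Embryonic stem cells hold themselves undifferentiated through a small network of transcription factors around OCT4 (POU5F1), NANOG and SOX2, and they divide fast, with a short first gap phase. Hepatocytes are the secretory and metabolic cells of the liver. They make most plasma proteins, assemble lipoproteins, detoxify drugs and ammonia, and rely on a set of factors that includes HNF4A, FOXA and C/EBP proteins. The fetal hepatoblast makes alpha-fetoprotein before albumin becomes the main secreted protein.

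The labels were checked against these markers first. POU5F1 (ENSG00000204531, chromosome 6) had values of 4861, 6498, 2640, 1280, 440, 88, 21, 6, 11 and 5 over the 10 days, which were days 0 to 3, the odd days from 5 to 13, and day 21. It was high through day 3 and nearly absent from day 11 on, and the difference between the ends was -9.66. ALB, the gene of albumin (ENSG00000163631, chromosome 4), had 4, 32, 20, 24, 62, 65, 72, 100, 168 and 4866 on the same days, a difference of 9.93. On the log2 scale its largest single step was from day 13 to day 21, and it had passed the midpoint of its change by day 13. TTR, the thyroid hormone and retinol carrier transthyretin (ENSG00000118271, chromosome 18), had 2, 2, 0, 0, 26 and 3430 up to day 7 and stood on the highest level, 18734, from day 9 to day 21. TTR was thus at its final level by day 9, whereas ALB was not before day 21. AFP, the fetal plasma protein alpha-fetoprotein, had 28 at day 0, 342 at day 5 and 18734 on each of the 5 days from day 7 to day 21. The markers of both cell types were on the side their label gives, and at day 21 the fetal marker AFP was on the highest level together with adult plasma protein genes.

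The bases just before the transcription start are shown for 6 genes, to set promoters of 3 gained liver genes beside those of 1 pluripotency gene and 2 mitotic genes that were lost. Sequences and starts are RefSeq's on GRCh38.p14, each 150 bases long, 5′ to 3′ on the strand of the gene: ALB chr4:73404137-73404286 (plus), AFP chr4:73436071-73436220 (plus), FGA chr4:154590743-154590892 (minus), NANOG chr12:7789252-7789401 (plus), CCNB1 chr5:69167000-69167149 (plus) and CDC20 chr1:43358831-43358980 (plus). Capitals mark matches, on either strand, to 7 short motifs.
ALB: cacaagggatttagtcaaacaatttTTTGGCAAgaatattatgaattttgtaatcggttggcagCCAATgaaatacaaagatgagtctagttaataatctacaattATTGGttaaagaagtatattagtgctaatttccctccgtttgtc
AFP: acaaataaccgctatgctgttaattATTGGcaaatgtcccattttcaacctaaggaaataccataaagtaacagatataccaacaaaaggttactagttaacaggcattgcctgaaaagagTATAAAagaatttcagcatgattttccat
FGA: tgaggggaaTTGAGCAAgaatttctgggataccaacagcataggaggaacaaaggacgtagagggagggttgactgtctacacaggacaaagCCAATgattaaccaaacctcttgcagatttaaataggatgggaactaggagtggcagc
NANOG: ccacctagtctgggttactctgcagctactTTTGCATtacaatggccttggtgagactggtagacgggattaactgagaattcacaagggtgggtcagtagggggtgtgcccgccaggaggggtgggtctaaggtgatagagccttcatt
CCNB1: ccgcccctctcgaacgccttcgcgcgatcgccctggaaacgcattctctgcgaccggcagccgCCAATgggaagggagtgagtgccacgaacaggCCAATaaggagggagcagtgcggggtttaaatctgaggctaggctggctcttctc
CDC20: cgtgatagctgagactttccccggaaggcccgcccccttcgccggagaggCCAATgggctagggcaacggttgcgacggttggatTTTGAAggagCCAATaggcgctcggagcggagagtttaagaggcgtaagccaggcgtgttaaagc

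The motifs, chosen after the values were seen, were TATAAA (core promoter), TGTTTNC (FOXA), TTGCNNAA (C/EBP), CAAAGTCCA (HNF4), CCAAT (bound by NF-Y), TTTGAA (the cell cycle element CHR) and ATGCAAA (part of the octamer). In the 35116 promoters of the RefSeq table, the 250 bases before the start held them in 10.7%, 15.5%, 9.05%, 0.325%, 32.0%, 13.3% and 3.94%, in that order. In the sequences above, no match overlaps another. ALB and FGA hold the C/EBP motif, 125 and 141 bases before the start, AFP the TATAAA motif at 29 and NANOG the partial octamer at 120. CCNB1 and CDC20 each hold 2 CCAAT boxes, and CDC20 has the CHR between its pair. The liver genes hold CCAAT boxes as well, ALB at 86 and 44 bases before the start, AFP at 125 and FGA at 58. Among the mitosis genes described below, 37 of 43 had entries, and of their 50 promoters 68.0% held CCAAT and 42.0% held TTTGAA. The DNA replication genes, with 39 promoters of 30 of 36 genes, held CCAAT in 61.5% and TTTGAA in 0.0%. The plasma carrier genes had only 12 promoters, of 9 of 11 genes, of which 50% held TTGCNNAA, 33.3% TATAAA and 58.3% CCAAT. Cholesterol and fatty acid synthesis genes, a list with 17 of 29 included genes kept, held CCAAT in 69.7% of 33 promoters. CCAAT was thus not particular to the lists of lost genes. Over the promoters of all included genes, CCAAT stood in 33.0%, TTTGAA in 9.06%, TTGCNNAA in 6.1% and TATAAA in 5.74%. The median CpG observed over expected ratio was 0.892 for mitosis and 0.497 for the carriers, against 0.802 for included genes and 0.558 for all promoters. A comparison over all gained and lost genes is void, because only 77.0% and 77.1% of them had a promoter entry.

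The largest gains were genes of secreted liver proteins together with genes of the connective tissue matrix. Among the 15 largest were SERPINA1, TTR, APOA4, TF, APOC3, AHSG, APOA2, AGT, RBP4, A2M and APOB, which encode plasma proteins, and COL3A1 and LUM, which encode a fibrillar collagen and a matrix proteoglycan. The other two were DLK1, an imprinted gene of hepatoblasts and other progenitors, and AQP1, a water channel. SERPINA1, the gene of the protease inhibitor alpha-1-antitrypsin, was listed at 0 on days 0 to 3 and had 8, 56, 704, 1046, 2640 and 18734 on days 5, 7, 9, 11, 13 and 21. COL3A1 had 0, 11, 16, 21, 111 and 2643 up to day 7 and 6502 on every later day. Both were absent or nearly so before day 5, and the collagen gene reached its final level by day 9, before the protease inhibitor did. Among gained genes, 451 (39.0%) had a value of 10 or less at day 0 and 119 were listed at 0, whereas 238 already had 50 or more. The gain was at least 8-fold for 651 genes and at least 64-fold for 192.

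**Figure D2:**
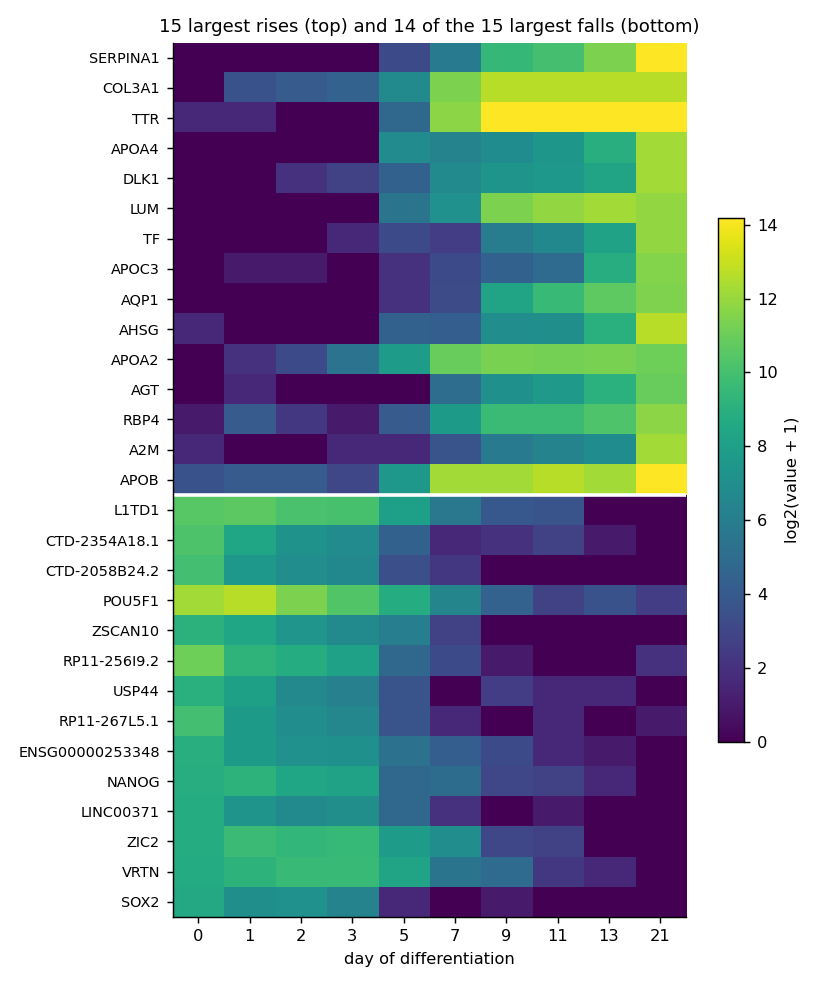
Colour gives log2(value + 1) on each of the 10 days (x axis) for the 15 genes with the largest rise and 14 of the 15 with the largest fall between day 0 and day 21 (y axis). COL3A1 and TTR were at their final level by day 9, DLK1 and A2M took their largest step on this scale between days 13 and 21, and the genes in the lower block faded mainly between days 3 and 9.

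Of 18 plasma carrier proteins listed, 11 were in the table, all passed the inclusion rule, and 9 of the 11 were gained against 11.9% of all genes, with a median difference of 9.93. TF, the iron carrier transferrin, went from a listed 0 to 3865, AHSG (fetuin-A) from 2 to 6495, AGT (angiotensinogen) from 0 to 1886, RBP4, the retinol carrier, from 1 to 3430, HPX, the heme carrier hemopexin, from 3 to 2798, and SERPINA6, the cortisol carrier, from 0 to 98. The exceptions were AMBP, at 18 and 74, just under the 4-fold line, and TCN2, a vitamin B12 carrier, at 157 and 166. Of the acute phase and inhibitor genes only 4 of 18 were in the table, and the 3 included were gained: SERPINA1, A2M (2 to 4858) and HP (2 to 74). A2M, the broad protease trap alpha-2-macroglobulin, had 120 at day 13, by when it had, like ALB, passed the midpoint of its log2 change. List counts are descriptions: a gene that passed the inclusion rule through only 1 of its ends had to differ between them.

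Nearly all included blood clotting genes were gained, against 11.9% of all genes. The 19 in the table summed to 249 at day 0, and 6 of them were listed at 0. A member listed at 0 at day 0 that passed the inclusion rule had to be called gained. Of 18 included (28 listed, 19 in the table), 17 were gained and 1 was lost, with a median of 6.61. The chains of fibrinogen went from 1 to 2796 (FGA), from 16 to 3438 (FGB) and from 0 to 1327 (FGG). VTN, the adhesion protein vitronectin, went from 1 to 2968, SERPIND1 (heparin cofactor II) from 0 to 758, F2 (prothrombin) from 0 to 405 and PLG (plasminogen) from 0 to 358. FGA had 1554 at day 7 and FGG only 34, so the chains of 1 protein did not appear together. PLAU, the urokinase plasminogen activator, was lost, with 58 at day 0, 246 at day 7 and 7 at day 21. Of the 11 complement genes, 7 were gained (median 3.84), among them CFI (0 to 252), CFB (0 to 210), C5 (2 to 604) and MASP1 (18 to 652). The 3 kept complement genes were SERPING1 (139 and 202), CD46 (852 and 704) and CD55 (91 and 100).

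Of 17 lipoprotein genes included, 10 were gained and 1 was lost, against 11.9% and 11.5% of all genes. Their median of 2.59 moved to 3.87 when libraries were scaled by the median of ratios. Among those gained were 6 apolipoprotein genes and the gene of the assembly protein: APOA4 (0 to 4855), APOC3 (0 to 2968), APOA2 (0 to 2164), APOB (11 to 18734), APOA1 (5 to 3428), APOM (5 to 191) and MTTP (16 to 464). LRP1, a receptor for lipoprotein remnants, had 1733 and 2636 and was kept, and APOE (1129 and 2428), a ligand of such receptors, was higher by less than 4-fold.

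Uptake, conjugation and bile acid genes were gained in part. Of 20 xenobiotic and alcohol metabolism genes included (45 listed, 22 in the table), 12 were gained, 0 were lost and 4 were kept. Over all genes the shares were 11.9%, 11.5% and 49.6%. The list median was 2.85. The largest differences were in conjugating enzymes: GSTA1 (0 to 650) and GSTA2 (0 to 527), glutathione transferases, UGT2B11 (0 to 182) and UGT2B7 (1 to 124), glucuronosyltransferases, NNMT (0 to 82) and SULT2A1 (0 to 56). GSTP1, the glutathione transferase of fetal and non-hepatic cells, went the other way, from 1638 to 733, and POR, the electron donor of cytochromes P450, was kept at 261 and 287. Drug-metabolizing cytochromes P450 other than CYP1B1 are not analysed here. Bile acid genes numbered 19 listed, 8 in the table and 6 included, and all 6 were gained, against 11.9% of all genes. They had 21 or less at day 0 and passed the inclusion rule through day 21 alone. They were the uptake carriers SLCO2B1 (1 to 1278) and SLC10A1 (0 to 508) and the synthesis enzymes AKR1D1 (0 to 90) and CYP27A1 (21 to 109). The others were the membrane transporters ABCC6 (8 to 190) and ABCC2 (6 to 96). SLC10A1, the bile salt carrier NTCP, had 36 at day 13.

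The hepatic transcription factors were gained earlier than most of the secreted proteins. Of 16 included (30 listed, 22 in the table), 13 were gained and 1 was kept, against 11.9% and 49.6% of all genes. The median was 4.85. HNF4A, a nuclear receptor central to hepatocyte identity, had 0, 4, 18, 28, 299, 1044, 1021, 918, 838 and 470 on days 0 to 21. It was highest at days 7 and 9 and under its peak at day 21. NR2F2 went from 0 to 234, FOXA1 from 0 to 54, GATA6 from 2 to 142, CEBPD from 3 to 187, TBX3 from 1 to 63 and CREB3L3 from 1 to 99. FOXA2, at 0 and 48 at the ends, fell just outside the inclusion rule. RXRA, the shared partner of many nuclear receptors, had 112 and 450, just under the 4-fold line, and no included member was lost.

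Receptor genes of the Oncostatin M and interleukin-6 family were higher at day 21, when Oncostatin M was in the medium. Of 14 genes of this pathway, 6 were gained, 1 was lost and 5 were kept, against 11.9%, 11.5% and 49.6% of all genes. The median was 1.16. IL6ST, the shared receptor chain gp130, had 24, 32, 47, 82, 258, 805, 756, 1250, 1158 and 2638 over the 10 days. The ligand-specific chain OSMR went from 8 to 171, LIFR from 46 to 376, IL6R from 16 to 268 and the kinase gene JAK2 from 10 to 70. LIFR had 3860 at day 7, before Oncostatin M was given. The transducer STAT3 (312 and 396) was kept, and SOCS1, a feedback inhibitor, was lost (70 and 5).

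Growth genes that are imprinted or belong to the insulin-like growth factor (IGF) axis were among the larger gains. Of 17 included, 8 were gained and 1 was lost, against 11.9% and 11.5% of all genes (median 1.30). IGF2, the fetal growth factor, had 3 at day 0, 6494 at days 11 and 13 and 3861 at day 21, and its neighbour H19, a non-coding RNA, had 16 at day 0 and 18734 from day 9 on. DLK1 went from 0 to 4855, IGFBP3 from 18 to 4858, IGFBP7 from 2 to 342, IGFBP5 from 16 to 1158 and GPC3, a fetal liver surface proteoglycan, from 128 to 4855. IGFBP2 was lost, with 1736 and 284. The receptor genes IGF1R (332 and 530) and IGF2R (494 and 1216) differed by less than 4-fold.

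Lysosomal genes were higher as a group, and the early secretory pathway only slightly so. By comparison, 11.9% of all genes were gained, 11.5% were lost and 49.6% were kept. Of 27 lysosomal genes, 25 were higher at day 21, 11 were gained and 1 was lost, with a median of 1.81. CTSB (cathepsin B) went from 109 to 3864, CTSA from 61 to 612, CTSH from 35 to 282, CTSL from 70 to 540, SCARB2 from 184 to 1130 and LAMP2 from 111 to 684. CTSC (cathepsin C) was lost, with 1088 and 118. Of 56 genes of translocation, folding and vesicle traffic, 40 were higher, but 33 were kept and only 2 were gained (median 0.75), against 5 gained when the libraries were scaled by the median of ratios: KDELR3 (30 to 331), a retrieval receptor, and SRPRB (76 to 480). HSPA5, the chaperone BiP, was just under 4-fold, at 872 and 3429, the latter a shared top level. Of the included class I antigen presentation genes, 1 of 10 was gained, B2M (144 to 982), the light chain of class I molecules.

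Few of the included urea cycle and glucose metabolism genes were gained, as was the case over all genes (11.9%). Listed genes outside the table were not seen, so the counts are descriptions of the included genes. The urea cycle and amino acid breakdown list had 27 genes, of which 18 were in the table and 13 were included. Among the 13, 1 was gained, 3 were lost and 3 were kept, against 11.9%, 11.5% and 49.6% of all genes. Their median of 0.56 moved to 1.46 when libraries were scaled by the median of ratios. The gained gene was CPS1, the enzyme that admits ammonia to the urea cycle, with 120, 96, 72, 76, 86, 62, 74, 66, 89 and 1217 over the 10 days. CPS1 was flat to day 13 and high only at day 21. ASS1 (160 and 214), the first cytosolic enzyme of the cycle, was kept, ASL had 58 and 171, and SLC25A13, the mitochondrial aspartate carrier, was lost (227 and 44). CBS, the first enzyme of cysteine synthesis, was also lost (1734 and 247), as was GLS2 (82 and 12), a glutaminase. Of 12 included genes of gluconeogenesis, glycogen and fructose metabolism (22 listed, 13 in the table), 0 were gained, 7 were kept and 1 was lost. The lost gene was UGP2 (2429 and 378), which makes the glucose donor for glycogen. PC (46 and 148), pyruvate carboxylase, was higher by less than 4-fold, and SLC2A2, the hepatocyte glucose carrier, was listed at 0 at both ends and had 54, 37 and 43 on days 9, 11 and 13.

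Fatty acid oxidation genes went in both directions. Of 32 included genes of oxidation, peroxisomes and ketone bodies, 7 were gained, 2 were lost and 15 were kept. Over all genes the shares were 11.9%, 11.5% and 49.6%. The list median was 0.28. FABP1, the liver fatty acid carrier, went from 2 to 108, and the peroxisomal genes ACAA1 (58 to 781), ACOX2 (7 to 92) and CAT (32 to 156) were gained. The mitochondrial trifunctional subunits HADHA (466 and 470) and HADHB (160 and 198) were kept, and HSD17B4 (902 and 206), a peroxisomal enzyme, and CPT1C (126 and 25) were lost.

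Among the losses, pluripotency genes formed the lowest list. Of 31 included (38 listed, 33 in the table), 29 were lost against 11.5% of all genes, 0 were kept and the median was -6.07, and 13 of the 33 were listed at 0 at day 21. L1TD1, an RNA-binding protein of hESCs, had 1436, 1554, 1108, 1087, 260, 50, 14, 12, 0 and 0 over the 10 days, the largest fall of all genes at -10.49. USP44 (518 and 0), NANOG (460 and 0), ZIC2 (434 and 0), VRTN (426 and 0) and SOX2 (371 and 0) followed POU5F1. NANOG had 286 at day 3 and 26 at day 5, while SOX2 had 82 and 2 on these days. The nodal co-receptor TDGF1 had 1044 at day 0, 2428 at day 3 and 4 at day 21, so that a gene can pass through a rise on the way to a loss. PROM1, a membrane protein that progenitors of several tissues carry, was the only included member that was higher, at 220 and 478, and CD9 (510 and 195) was lower by less than 4-fold.

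Non-coding RNAs were frequent among the largest falls. CTD-2354A18.1 (1214 and 0), the antisense RNA CTD-2058B24.2 (1000 and 0) and the lincRNAs RP11-256I9.2 (2164 and 3) and RP11-267L5.1 (980 and 1) had values of 10 to 26 at day 5, so that most of their fall was over by then. The row with identifier ENSG00000253348 (474 and 0) is an antisense RNA in GENCODE, although the table gives it the symbol of a microRNA. By GENCODE type, a grouping made after the values were seen, 41.2% of 68 lincRNAs were lost and 16.2% gained, against 11.3% and 11.8% of 9407 protein-coding genes, and 23.5% of 51 antisense RNAs were lost. Strand use in counting is not given in the sources used here, so reads of an antisense RNA and of its partner may not be separated. The falls also held ZSCAN10 (550 and 0), a zinc finger factor of stem cells, and LINC00371 (446 and 0). Despite its symbol, LINC00371 is typed as protein-coding in GENCODE.

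Enzymes that write DNA methylation and several chromatin proteins were lower. DNMT3B, the de novo methyltransferase of early embryonic cells, had 3862, 2428, 1384, 956, 544, 407, 297, 257, 200 and 77. It was lower on each successive day. UHRF1 (148 and 10) and DNMT1 (568 and 141), the maintenance pair, were also lost, and TET2 (48 and 155), a demethylating enzyme, was higher by less than 4-fold, in a list of 9 with 3 lost, 3 kept and a median of -1.31. Of 27 Polycomb and remodelling genes, 10 were lost, 3 gained and 8 kept, against 11.5%, 11.9% and 49.6% of all genes (median -1.06). Paralogues parted: PHC1 was lost (6494 and 203) and PHC2 gained (37 and 268), and the remodelling ATPase SMARCA2 was gained (14 and 108) while SMARCA4 went from 920 to 266. EZH2, the Polycomb methyltransferase of dividing cells, was lost (99 and 16) and EZH1 kept (98 and 106). HMGB3 (746 and 18), HELLS (424 and 16), CBX2 (582 and 31) and HMGA1 (3428 and 218), a chromatin protein of fetal cells, were lost, and BMI1 (12 and 80) was gained.

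Cell division genes were lower as a block. Of 43 mitosis genes, all in the table and included, 38 were lost, against 11.5% of all genes. Of the 43, 42 were lower and the median was -3.37. DLGAP5 went from 404 to 3, BUB1B from 676 to 14, CCNA2 (cyclin A2) from 305 to 8, PTTG1 (securin) from 261 to 7, KIF11 from 211 to 8, UBE2C from 308 to 14, MAD2L1 from 355 to 17 and CDC20 from 405 to 20. TOP2A, the topoisomerase that untangles chromosomes, had 1087, 1214, 1156, 612, 676, 149, 324, 668, 628 and 59, so that it was low at day 7, higher again from days 9 to 13 and lowest at day 21. The summed level of the list followed the same course, with sums of 15022, 3489, 8769, 7643 and 2096 on days 0, 7, 11, 13 and 21. CDC25B (70 and 175) was the only member that was higher. MKI67, the proliferation marker Ki-67, was lost but not absent, at 522 and 111.

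Genes that supply the S phase were lower with them. By comparison, 11.9% of all genes were gained and 11.5% were lost. Of 36 replication genes included, 36 were lower and 24 were lost (median -2.80), among them MCM10 (112 and 3), GINS2 (138 and 6), ORC1 (155 and 7), CDT1 (302 and 15), RFC3 (144 and 7), CDC45 (98 and 5), PRIM1 (103 and 6) and the helicase subunit MCM5 (606 and 41). Of 28 nucleotide and one-carbon genes, 18 were lost, 27 were lower and the median was -2.25, with RRM2 (320 and 28), MTHFD1 (540 and 49) and PSAT1 (903 and 96) among the largest differences. IMPDH1 had 102 at both ends. In the opposite direction, CDKN1C, an imprinted inhibitor of cyclin-dependent kinases, had 20, 30, 30, 57, 372, 1045, 890, 839, 724 and 1130, and CDKN1A (p21) had 69 and 303. These were the 2 gained genes among 8 included inhibitors, where CCNG1 was lost (2798 and 478).

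Ribosome assembly, splicing and folding genes were lower in a graded way. By comparison, 11.5% of all genes were lost and 49.6% were kept. All 28 of 28 ribosome biogenesis genes were lower and 16 were lost (median -2.15), among them RRS1 (106 and 2), NPM1 (18734 and 1107), BOP1 (264 and 16), NOP56 (872 and 94), RRP9 (90 and 9), UTP20 (167 and 18) and NOP58 (284 and 33). Their summed level was 29678 at day 0, 14363 at day 2 and 3688 at day 21. Of 38 core splicing factors 10 were lost (median -1.24), with HNRNPA2B1 at 18734 and 1434 and SNRPF at 276 and 28, and 15 were kept, with SNRNP70 (641 and 788) and SF3B1 (1156 and 1324) slightly higher. Of 26 chaperones 7 were lost (median -1.54), among them the mitochondrial HSPD1 (3862 and 446) and HSPE1 (669 and 110), and only HSPB1 (270 and 314) was higher. Both metallothioneins in the table were lost: MT1X went from 492 to 32 at day 1 and to 1 at day 2, and MT2A from 130 at day 0 to 10 at day 21.

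Signalling genes of the stem cell state were lost without the whole list moving. Of 28 included Nodal, FGF and WNT genes, 8 were lost, 4 gained and 9 kept (median -0.41). Over all genes the shares were 11.5%, 11.9% and 49.6%. The lost genes were the WNT antagonists SFRP2 (1214 and 8) and SFRP1 (780 and 39), FGF19 (74 and 0), FGF13 (141 and 2), the feedback inhibitors SPRY4 (854 and 24) and DUSP6 (1280 and 78) of the FGF pathway, and the receptors FZD7 (506 and 70) and FGFR1 (1066 and 220). WNT5A (9 and 206) and FGFR3 (33 and 348) were gained. The signal transducers SMAD2 (214 and 308) and SMAD4 (190 and 164) were kept.

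Among the lists of basic cell functions, kept shares were in many cases near that of all genes and most lists leaned lower, so their counts are descriptions only. Of 49 oxidative phosphorylation subunits, 33 were kept against 49.6% of all genes and 2 were lost, yet 49 of 49 were lower, with a median of -0.68, and 44 of 49 when the libraries were scaled by the median of ratios. The lost ones were CYCS (488 and 90), cytochrome c, and ATP5G1 (128 and 24). ATP5L had 234 and 227 and NDUFS1 254 and 245, examples chosen after their values were seen. Of 24 tricarboxylic acid cycle genes, 15 were kept (median -0.45), 2 were gained, MPC2 (33 and 382), a subunit of the mitochondrial pyruvate carrier, and SUCLG1 (47 and 312), and 1 was lost, SUCLA2 (355 and 52), a subunit of the same enzyme as SUCLG1. Of 31 proteasome subunits, 31 were lower (30 with that scaling), 15 were kept and only PSMA2 (582 and 125) was lost (median -1.08).

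Of 29 cholesterol and fatty acid synthesis genes, 17 were kept, against 49.6% of all genes, 0 were gained, 2 were lost and 21 were lower, with a median of -0.54, and with that scaling 0 were lost. The lost genes were HMGCS1 (3431 and 780), at the head of the sterol pathway, and the gene of acetyl-CoA carboxylase alpha, at the head of fatty acid synthesis. HMGCS1 was on the highest level, 18734, at days 2 and 3, so that it moved far between ends that differ little more than 4-fold. Lower by less than 4-fold were FASN (2796 and 768), ELOVL6 (392 and 111), FDFT1 (1384 and 421) and ACLY (1889 and 676), and MSMO1 (534 and 1250) was higher. DHCR7, the last enzyme of the sterol pathway, had 540 and 541, an example chosen after its values were seen. Of the 11 iron genes 8 were kept, while SLC40A1 (1 to 453), the iron exporter ferroportin, and CYBRD1 (20 to 137) were gained.

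Glycolytic genes went in both directions, and those on the highest level at day 0 were lower at day 21. A gene on that level could only stay or fall, and 10 genes stood on it at each end. Of 20 included glycolytic genes, 3 were lost and 9 were kept, against 11.5% and 49.6% of all genes (median -0.55). LDHB (18734 and 1130), PKM (18734 and 2022) and GAPDH (18734 and 2164) were lost, and ENO1 had 18734 and 4861. HK1 (1185 and 364) and GPI (1046 and 384) were lower by less than 4-fold, and ALDOC (371 and 901) and PFKP (336 and 686) higher. With values above 2164 set to 2164, the median of this list was 0.00 in place of -0.55, so its lean rests on capped genes. LDHA, which makes lactate, had 2798, 676, 1130, 1022, 444, 304, 484, 589, 695 and 2165, and PGK1 had 6496 at day 0, 853 at day 7 and 4858 at day 21. Both counted as kept, but in between they were under both ends. Of the 10 genes on the highest level at day 0, only EEF1A1, an elongation factor, was there at day 21 too, as on every day between, whereas GAPDH and ACTB (18734 and 3428, the cytoskeletal actin) were lower.

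Translation factors and tRNA synthetases were kept in 26 of 43, with 4 lost (median -0.90), namely EIF5A (2428 and 296), LARS (1185 and 166), VARS (482 and 84) and TARS (823 and 192). Only 2 of 75 listed ribosomal proteins were in the table, so the ribosome itself is not described. Some gene families were counted by symbol after the values were seen. Over all genes 11.9% were gained, 11.5% lost and 49.6% kept. Kept shares were higher in VPS genes of endosomal sorting (24 of 29) and RAB GTPases (34 of 48), and 0 VPS genes were gained or lost. Kinesins were lost in 13 of 29, and 19 of 24 included collagen chains were gained. Of the 206 included zinc finger (ZNF) genes, 122 were kept, 8 gained and 16 lost.

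Most of the included epithelial junction genes and mesenchymal genes were higher at day 21. Of 30 included junction and keratin genes, 24 were higher, 5 were gained, 13 kept and 1 lost (median 0.74). By comparison, 11.9% of all genes were gained, 49.6% kept and 11.5% lost. The gained and kept shares of this list were near these, and its counts are descriptions. GJB1, the gap junction protein of hepatocytes, went from 0 to 234, CLDN1 from 12 to 264, DSP (desmoplakin) from 376 to 2970, OCLN from 68 to 373 and KRT19 from 266 to 1157, while CLDN10 was lost (52 and 0). The hepatocyte keratins KRT8 (1438 and 2024) and KRT18 (2020 and 1248) were kept. Of 17 mesenchymal genes 12 were gained, with a median of 4.46, or 2.92 with values above 2164 set to 2164. LOX (6 to 6496), which cross-links collagen, ZEB2 (0 to 312), CDH11 (11 to 872) and TGFBI (60 to 3862) were the largest differences.

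Markers of stromal, red blood, bile duct, macrophage, endothelial and gut cells were higher in sum at day 21 along with the liver genes, and their part in the results above was not tested. Of 21 stromal markers 20 were in the table and 19 included, of which 14 were gained and 1 was lost. Over all genes the shares were 11.9% and 11.5%. The median of the stromal markers was 4.18, or 2.88 with values above 2164 set to 2164. Their summed level was 5500 at day 0 and 77554 at day 21, with 11 of the 20 on a shared top level at day 21, and 2 of them were listed at 0 at day 0 and none at day 21. COL3A1, LUM (0 to 3868), COL5A1 (72 to 18734), DCN (20 to 2802), PDGFRA (10 to 695), POSTN (34 to 2170), COL1A2 (390 to 18734) and COL6A3 (65 to 2638) were higher, and THY1, a marker that hESCs share with fibroblasts, was lost (2164 and 12). Red blood cell markers (11 of 20 in the table) had summed levels of 128, 6046 and 3121 at days 0, 13 and 21. Of the 10 included 7 were gained, with embryonic globin HBE1 at 0, 2968 and 1248 and fetal globin HBG2 at 0, 1044 and 604 on these days. Paralogous globin genes can share reads, and the split between them is uncertain.

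Bile duct markers (9 of 14 in the table) summed to 874 and 7307, with 6 of 8 included gained, against 11.9% of all genes. Among the 6 were AQP1 (0 to 2796), CFTR (9 to 519) and SPP1 (136 to 1896), while KRT7 had 12 and 24. Macrophage and leukocyte markers (6 of 24) summed to 182 and 727, with CD68 at 0 and 259, LAPTM5 at 3 and 92 and LYZ at 18 and 201, whereas the pan-leukocyte gene PTPRC had 39 and 65. Endothelial markers (10 of 16) summed to 876 and 1725, with CDH5 at 3 and 120 and TEK at 52 and 768, and KDR kept at 517 and 302. Gut and pancreas markers (4 of 18) summed to 128 and 658, with the intestinal factor CDX2 at 0 and 162, VIL1 at 4 and 374 and GUCY2C at 26 and 122. The neuroendocrine gene CHGA was listed at 98 and 0. Neural markers (7 of 16) summed to 1549 and 574, with NES (768 and 70) lost and NCAM1 (20 and 224) and STMN2 (5 and 120) gained. Stellate cell markers (5 of 12) summed to 729 and 324, heart and muscle markers (8 of 15) to 173 and 178, and the single lung and thyroid marker in the table, FOXJ1, had 16 and 3.

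The days between the ends show when each gene first passed the midpoint of its log2 change. Of the gained genes 27.3% had done so by day 3, 46.5% by day 5, 68.4% by day 7 and 92.5% by day 13, and 87 genes did so first at day 21. The lost genes were behind on each of these days, at 15.4%, 32.3%, 61.3% and 87.4%, with 141 first at day 21. The interval from day 5 to day 7 held the most first passages in both directions, 253 gained and 324 lost genes. The median day was 5 for the gained hepatic transcription factors, 7 for coagulation, lipoprotein and lysosomal genes and 9 for plasma carriers and complement. Among lost genes it was 7 for pluripotency and mitosis, 10 for replication and 11 for ribosome biogenesis. A first passage need not last: the mitosis genes summed to 3489 at day 7 but to 8769 and 7643 at days 11 and 13. Their median difference from day 0 was -0.93 at day 13 and -3.37 at day 21. Day 21 was the highest day for 729 gained genes, and 139 were higher again by 4-fold or more than at day 13. Day 0 was the highest day for 564 lost genes, and 180 were still at least 4-fold above their final value at day 13.

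**Figure D3:**
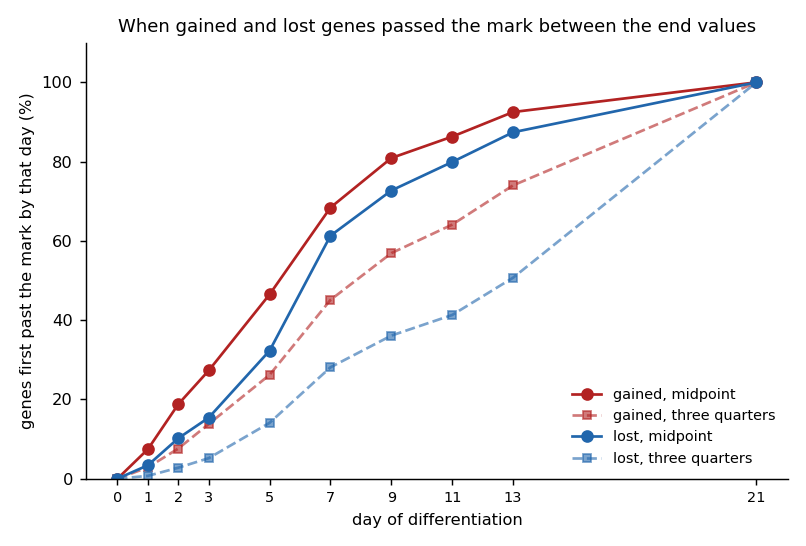
Percentages are of gained (red) and lost (blue) genes past a mark at least once (y axis) by each day (x axis). The marks are the midpoint of the log2 change (solid) and 75% of it (dashed). By day 7 the midpoint share was 68.4% for gained and 61.3% for lost genes, and the share past 75% of the change was 45.1% and 28.1%.

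A pair of libraries that the calls did not use, day 13 against day 1, was read for the same genes, as a description. In that pair 9.67% of 9453 genes were 4-fold higher and 6.38% 4-fold lower. Of the 1156 gained genes, 949 passed the inclusion rule in the pair, 673 (58.2% of all gained) were at least 4-fold higher in it and 0 were 4-fold lower. Of the 1120 lost genes, 983 passed, 412 (36.8%) were at least 4-fold lower and 1 was 4-fold higher. By sign alone the order was the other way, with 922 gained genes (79.8%) higher and 969 lost genes (86.5%) lower. The pair lies within the same course, so it is not a repeat of the ends.

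Similar values at the ends did not always mean similar values in between. Of the 4812 kept genes, 3343 (69.5%) were within 2-fold of day 0 on every day, while 172 (3.57%) were at least 4-fold away from both ends on some day, 50 above and 127 below, 5 of them in both directions. Day 5 held the most low points, 41, and days 3 and 5 the most high points, 15 and 14. KITLG, the ligand of the KIT receptor, had 59, 252, 291, 178, 3868, 374, 138, 75, 42 and 45. PCDH10, a protocadherin, had 134 at both ends and 6502 at days 1 and 5, and TNC, the matrix protein tenascin C, had 98 and 96 at the ends and 2798 at days 3 and 5. These genes peaked between days 1 and 5, in the Activin A and the BMP2 with FGF4 steps. FBLN2, a matrix protein, reached 3428 at day 5 between 149 and 98, and MANEA, a Golgi mannosidase, 1090 at day 3 between 58 and 57. On the other side, PTPRC, the leukocyte phosphatase CD45, had 39, 12 and 18 on days 0 to 2, was listed at 0 on days 3 to 13 and had 65 at day 21. MMP9, a matrix protease, had 39 at day 0, under 10 from day 2 to day 13 and 60 at day 21. ADAMTS20 (74 and 48), SCN9A (51 and 39) and the read-through row ISY1-RAB43 (51 and 66) were each listed at 0 on at least 1 day, at ends close to the inclusion limit. ISY1-RAB43 shares exons with its neighbours, and its values are uncertain.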

How the data were processed

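RNA of 10 days of differentiation, 1 TruSeq library per day, had been sequenced on a MiSeq. The submitters' processing notes name Bowtie2 (v2.2.0), RSEM (v1.2.17) and the builds mm10 and hg19 without a role. The methods give an Ensembl 76 transcriptome and GC normalisation with EDASeq, and the build of the gene intervals is not given in the sources used here. The values the authors deposited were treated as a score: they are whole numbers whose ranked values are nearly the same in all libraries, with 10 shared top levels, so that read depth is unknown and no counting interval can be given. All day columns of the table were mapped to samples by their day. Genes missing from the table are not analysed here.

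Differences of log2(value + 1) were taken for genes with a larger end value of 50 or more, with 4-fold as the limit for gained and lost and 2-fold for kept. With 1 library per side no test was run. The scale understates differences of low genes, and a fold against a listed 0 is not a bound. The 50 gene lists, of 1297 symbols with 995 in the table, were chosen with earlier results of these data known, as were the genes compared, and some genes stand in 2 lists. Named genes were up to 8 members per list by size of the difference, then members that went against their list, the 15 largest rises and falls, genes on the highest level at both ends and the 5 kept genes that moved farthest in each direction in between. Some genes that this rule would name are not reported here. Any further list member was named after its values were seen. Promoters were matched to RefSeq by current symbol or unambiguous synonym. Alternatives were another pseudocount, filter, scaling, treatment of the top levels, fold limit and choice of end library. The code was tested on simulated data and run in Python 3.11.15 with numpy 2.4.6, pandas 2.3.3 and matplotlib 3.10.9.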

Additional observations from a re-analysis of the deposited data

How the results depend on the processing

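With 1 library per side, no replicate could be left out, and no paired analysis was possible because each day has 1 library. The deposited scores give no depth, so the precision of low values is unknown. Counts of gained, lost and kept genes stayed within 1.5 times of 1156, 1120 and 4812 with a pseudocount of 5 or 0.1, with no filter, with top levels capped or left out and with day 1 in place of day 0. Scaling by the median of ratios moved the middle gene from -0.11 to 0.13 and gave 1346 gained and 945 lost genes. With a larger value of 200 or more required, 591, 494 and 1626 genes were gained, lost and kept, since only 3846 genes were included. With limits of 8-fold and 1.5-fold the counts were 651, 556 and 3003. With day 13 in place of day 21, 640 genes were lost, of which 531 were among the 1120, and 903 were gained, of which 706 were among the 1156. The cause was not tested.

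By day 7, 521 gained and 315 lost genes had gone 75% of the way, against 791 and 686 past the midpoint. In the pair of days 13 and 1, 969 lost and 922 gained genes had the same sign, against 412 and 673 that differed 4-fold. At 8-fold, 52 kept genes differed from both ends in between, against 172 at 4-fold. Of up to 49 list medians per alternative, beside the reversals below, 39 moved by at least 0.36, the SD between days 9 and 11, with day 13 as the end, 17 with day 1 as the start, 12 with no filter, 12 with a pseudocount of 5, 5 with capped top levels and 3 with the other scaling. Of 293 list medians under alternatives, 8 changed sign, none of them under the other scaling, and 3 of these were of medians past 2-fold, in lists of 2 or 4 included genes. The stellate cell median went from -2.75 to 1.75 with no filter and to 2.57 with day 13 as the end, and the median of transient endoderm genes went from 4.83 to -4.83 with day 1 as the start. The promoter comparison with 8-fold genes was not run as a result, because the check was void.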

Other observations

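Genes of early endoderm that the stepwise protocol passes through were mostly absent at both ends. Of 18 such genes listed, 16 were in the table and only 4 passed the inclusion rule, with summed levels of 62 at day 0 and 465 at day 21. All 4 were gained, against 11.9% of all genes. Among them were GATA6 (2 and 142), a factor of endoderm and later of several epithelia, PRDM1 (3 and 104) and the chemokine receptor CXCR4 (5 and 58). With day 0 values this low, these named genes had to be called gained once they passed the inclusion rule. SOX17, the factor that marks definitive endoderm, had 2 and 4 at the ends, and CER1, a secreted Nodal antagonist, had 6 and 2.

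Of 10 factors that regulate splicing in epithelia, 6 were kept, 1 gained and 1 lost (median -0.41), near the shares of all genes (49.6%, 11.9% and 11.5%). ESRP1, an epithelial splicing regulator, was lost (424 and 102), and MBNL2 was gained (3 and 194). Among families counted by symbol after the values were seen, 31 of 174 included solute carriers were gained and 11 lost. In protocadherins 7 of 15 were gained and 1 lost, against 11.9% gained and 11.5% lost of all genes. Sorting nexins were kept in 19 of 24, against 49.6% of all genes.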
